A study of Mus musculus with 28 samples.

Results

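The comparison described here is of mouse embryonic stem (ES) cells that lack the TET enzymes with wild type (WT) cells, both with KAP1 present. It used the RNA-seq libraries that received an empty hairpin vector (shEmpty), 2 from TET triple knockout cells (TET TKO, knockout of Tet1, Tet2 and Tet3) and 3 from WT cells, which are 5 of the 28 samples of the series and 5 of its 16 RNA libraries. All cells were labelled as embryonic stem cells of strain 129S4/SvJae, line J1, and were kept in the 2i and LIF medium of the naive state. All were transduced with a lentiviral hairpin vector, selected with 4 µg/mL puromycin and collected at day 5, so WT and TET TKO cells share the vector and the selection. Replicates came from independent experiments, but each genotype was 1 cell line. A difference between the genotypes and a difference between the lines therefore cannot be told apart. The paper states that the TET TKO cells were obtained from another group. It does not state that the WT cells used for RNA are their parental line, so the shared label does not establish a shared origin.

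TET enzymes oxidise 5-methylcytosine to 5-hydroxymethylcytosine (5hmC), a step towards the removal of DNA methylation. Tet1 and Tet2 are the members that ES cells express most, whereas Tet3 is best known from the oocyte and zygote. Many transposable elements (TEs), imprinted genes and germline genes are kept silent by DNA methylation, by histone marks or by both, and KAP1 (the product of Trim28) is the corepressor through which KRAB zinc finger proteins bring H3K9me3 to TEs.

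The libraries held 18613633 to 29373696 reads on genes, and reads on TEs came to between 4.63% and 5.12% of that number. Levels are given as CPM, the reads scaled to 1000000 gene reads with TMM factors, in the order WT replicates 1, 2 and 3 and then TET TKO replicates 1 and 2. Fold changes are log2 values of TET TKO over WT with the standard error (SE) of the fit, and adjusted p-values come from edgeR's quasi-likelihood test with Benjamini-Hochberg adjustment. A gene, integrant or family was called when the adjusted p was below 0.05 and the change at least 2-fold. Of 9 marker genes of ES cells edgeR, limma-voom and DESeq2 each called 0, with 1 higher and 1 lower at an unadjusted edgeR p below 0.05 (18.8% and 18.3% of all genes tested passed so), and their summed level was 4636, 4858 and 4816 CPM in WT and 4748 and 4421 CPM in TET TKO. TET TKO replicate 2 stood apart from all other shEmpty libraries in 18 genes, most of them small RNAs or histone genes, where it was over 10-fold higher than each of them. These genes held 586809 of its reads and 26616 reads of TET TKO replicate 1. The count of Lars2, a mitochondrial leucyl-tRNA synthetase, went from at most 536 CPM elsewhere to 10708 CPM. Among TE integrants 10 behaved in the same way, with 62342 and 2508 reads. Mitochondrial rRNA genes held 0.0585% of the gene reads in TET TKO replicate 1 and 0.387% in replicate 2, and genes annotated as miRNA 0.0414% and 0.755%. Whether these reads came from the transcripts of the genes they were counted for was not tested. Genes of chromosome 8 had a median log2 fold change of 0.13 over 715 genes, whereas the other autosomes and the X chromosome lay between -0.05 and 0.05.

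Transcripts of 2 of the 3 targeted genes were lower in TET TKO cells. Tet1 measured 749, 605 and 610 CPM in WT and 219 and 247 CPM in TET TKO, a log2 fold change of -1.49 (SE 0.13, adjusted p = 1.02e-06). For Tet2 the levels were 333, 437 and 453 CPM against 92.1 and 90.1 CPM, a change of -2.16 (SE 0.10, adjusted p = 1.3e-10). In both genes every TET TKO library lay below every WT library. Tet3 measured 10.7, 15.2 and 15.9 CPM against 13.3 and 14.2 CPM, with a change of -0.03 (SE 0.16, adjusted p = 0.924), and the groups overlapped. On the per-length scale the mean levels of Tet1, Tet2 and Tet3 were 44.5, 44.3 and 1.26 RPKM in WT and 15.8, 9.90 and 1.24 RPKM in TET TKO. A gene count adds reads over all exons, so transcripts that keep undeleted exons still count and these values check the labels only in part. Trim28 measured 1991, 1639 and 1626 CPM against 1771 and 1898 CPM, a change of 0.07 (SE 0.16, adjusted p = 0.818), with overlapping groups.

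Of 20321 genes tested, 1151 were higher and 976 were lower in TET TKO cells, together 10.5%. The median log2 fold change over all genes was 0.00. With 3 and 2 libraries the groups did not overlap in 53.1% of all genes tested, so a gap between the groups is common also among genes that were not called, and it was present in 1112 of the called genes that rose and 952 of those that fell. A gap between the groups that is mentioned for a named gene therefore adds little to its call. These are bulk libraries, so fewer cells that express a gene and less RNA in each cell cannot be told apart. The largest rises began near silence in WT. Gm11800, a pseudogene, went from 0, 0 and 0.0354 CPM to 20.8 and 20.5 CPM (log2 fold change 10.10, SE 0.52, adjusted p = 1.72e-10). It lies on chromosome 4 inside an RLTR45-int element, described with the TEs. Ubd, which encodes the ubiquitin-like protein FAT10, went from 0, 0 and 0.0354 CPM to 15.5 and 13.1 CPM (9.58, SE 0.45, adjusted p = 1.71e-09). Both genes were almost without reads in every WT library and similar in the TET TKO libraries.

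Obox6, an oocyte-specific homeobox gene, measured 0.389, 0.534 and 0.778 CPM in WT and 61.0 and 55.5 CPM in TET TKO, a change of 6.62 (SE 0.37, adjusted p = 1.49e-08). Trim43a, a tripartite motif gene known from preimplantation embryos, measured 0.444, 1.42 and 0.885 CPM against 57.1 and 56.5 CPM (5.86, SE 0.34, adjusted p = 3.19e-08). Their TET TKO levels lay far above all WT libraries. Serpina3m, a serine protease inhibitor of a multigene cluster, measured 0.167, 0.0711 and 0.142 CPM against 15.9 and 16.1 CPM, a change of 6.98 (SE 0.44, adjusted p = 1.5e-08). The other genes among the 12 largest rises were Gm10499, RNase_MRP, Khdc1c, Gm14443, Abhd12b, 2810429I04Rik and Xlr5b, with changes between 5.72 and 8.13. RNase_MRP was high in 1 library only, at 0.211 and 11.8 CPM in TET TKO, and its adjusted p of 0.0326 became 0.704 without TET TKO replicate 2.

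Among the 12 largest falls, Apoa2, which encodes an apolipoprotein of high-density lipoprotein, measured 11.3, 9.39 and 9.73 CPM in WT and 0.0705 and 0 CPM in TET TKO, a change of -7.93 (SE 0.45, adjusted p = 5.26e-10). The transcript Gm13394 measured 162, 161 and 153 CPM against 3.10 and 3.49 CPM (-5.59, SE 0.12, adjusted p = 1.34e-15). Both were close to even in WT, and Apoa2 was near absent in TET TKO, while Gm13394 was still measured in both libraries. A pair of neighbouring collagen VI genes on chromosome 9 fell as well. Col6a4 measured 9.05, 7.79 and 9.87 CPM against 0.247 and 0 CPM (-6.07), and Col6a5 measured 5.22, 7.93 and 6.37 CPM against 0.353 and 0.0376 CPM (-5.0). 2410141K09Rik measured 45.6, 39.2 and 35.9 CPM against 0.458 and 0.225 CPM (-6.84, SE 0.24), and Wdr64, Gm12586, Gm10159, D630013G24Rik, AI427809, AA986860 and Gm8210 fell by between 5.04 and 7.31 on the log2 scale.

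**Figure D1:**
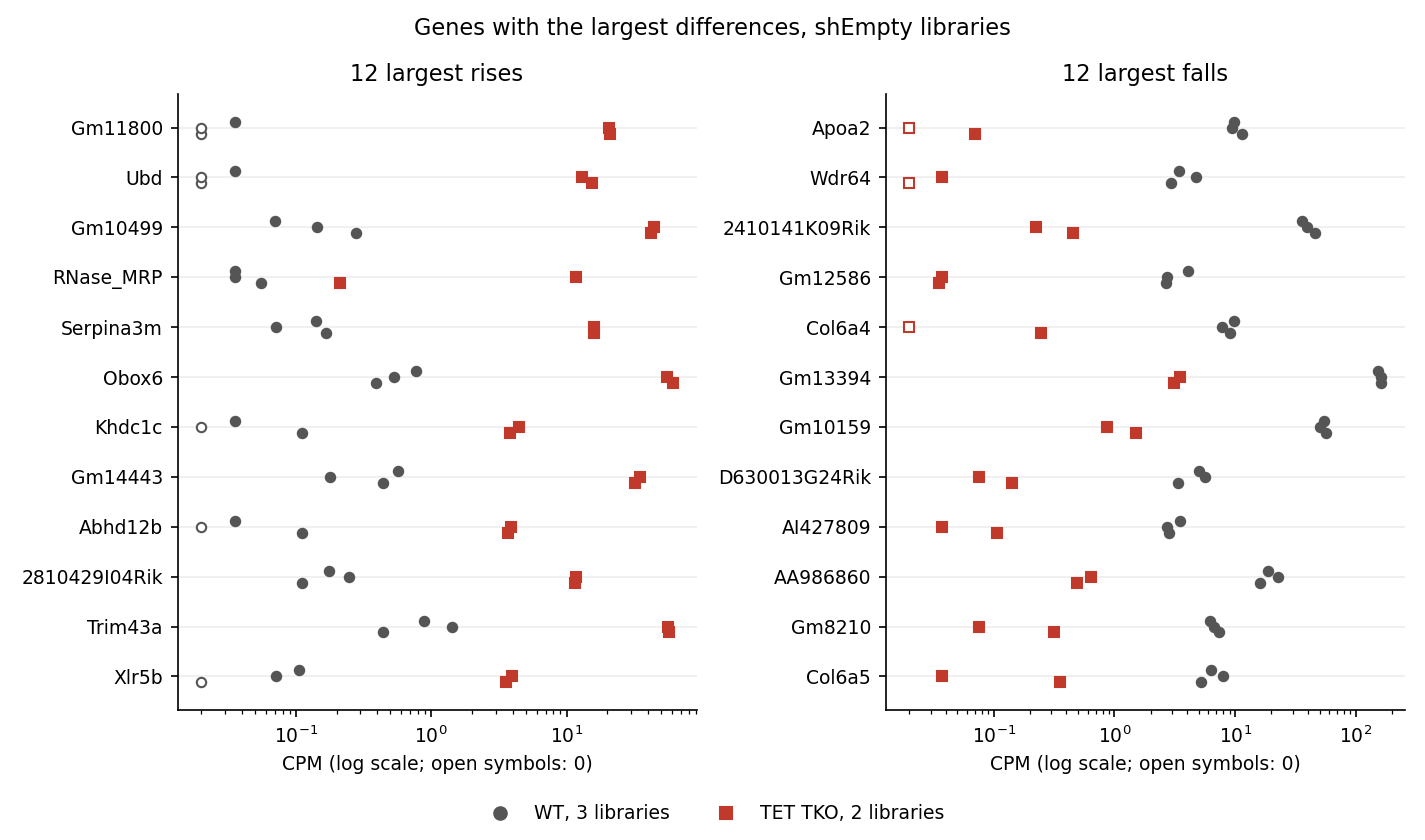
Level of the 12 genes with the largest rises and the 12 with the largest falls in each library, in CPM on a log axis (circles WT, 3 libraries; squares TET TKO, 2 libraries; open symbols stand for 0). Genes were chosen for groups that do not overlap, so the separation of the genotypes is given by that choice. The TET TKO libraries of RNase_MRP lie far apart, at 0.211 and 11.8 CPM, and so do those of Col6a5, at 0.353 and 0.0376 CPM.

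Among signalling genes, those of the Nodal pathway are described first. Nodal is a TGF-beta ligand that ES cells make themselves, and the Lefty proteins, themselves targets of the pathway, are its secreted antagonists. The 250 bases before the annotated start of Lefty1 and Lefty2 are shown because these neighbouring genes rose together and their promoters are alike in sequence. They are of mm9, plus strand, chr1:182864903-182865152 and chr1:182822989-182823238, with each CpG in capitals.
Lefty1: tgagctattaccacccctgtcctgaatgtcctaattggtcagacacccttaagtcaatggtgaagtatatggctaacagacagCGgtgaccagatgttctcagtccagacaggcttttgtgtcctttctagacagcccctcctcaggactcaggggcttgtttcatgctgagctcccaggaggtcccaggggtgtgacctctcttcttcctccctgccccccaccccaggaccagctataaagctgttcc
Lefty2: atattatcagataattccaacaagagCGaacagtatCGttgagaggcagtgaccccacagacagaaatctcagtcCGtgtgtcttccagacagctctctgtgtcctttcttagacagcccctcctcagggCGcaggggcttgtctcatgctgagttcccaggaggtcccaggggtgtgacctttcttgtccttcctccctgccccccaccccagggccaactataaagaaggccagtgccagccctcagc
The stretches of Lefty1 and Lefty2 match at 187 of 271 aligned columns (69.0%), and their longest shared run is 27 bases. They hold 1 and 4 CpGs. Over the 300-base window that reaches 50 bases past the start, the observed to expected CpG ratio is 0.190 for Lefty1 and 0.280 for Lefty2.

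Of 37 genes of the Nodal and BMP list tested, 5 rose and 2 fell (18.9%, against 10.5% of all genes), and the median change of the list was 0.15. Lefty2 measured 37.8, 31.8 and 24.3 CPM in WT and 214 and 233 CPM in TET TKO, a change of 2.85 (SE 0.62, adjusted p = 0.00621). Lefty1 measured 6.66, 5.09 and 3.96 CPM against 37.6 and 39.9 CPM (2.91, SE 0.74, adjusted p = 0.0136). Its adjusted p was 0.0524 without TET TKO replicate 2 and 0.0543 without WT replicate 3. In both genes the TET TKO libraries lay close together and above every WT library. Smad3, a receptor-regulated transducer of the pathway, measured 18, 16.3 and 15.9 CPM against 40.4 and 42.4 CPM (1.31, SE 0.16), and Cfc1, a Nodal co-receptor, rose from 24 reads in all (3.07), a call lost without TET TKO replicate 1 (adjusted p = 0.0683). The ligand Nodal itself was level, with 96.4, 105 and 106 CPM in WT and 106 and 104 CPM in TET TKO (0.03, SE 0.11, adjusted p = 0.862). On the BMP side the ligand Bmp4 measured 12.1, 8.40 and 7.39 CPM against 2.61 and 2.33 CPM (-1.90, SE 0.38). Its target Id1 measured 7.16, 8.15 and 7.68 CPM against 2.29 and 1.84 CPM (-1.89, SE 0.23). For both genes no TET TKO library reached the lowest WT library.

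In the Wnt list 4 of 44 genes rose and 9 fell (29.5%, against 10.5% of all genes), with a median of -0.12, and without TET TKO replicate 2 the counts were 2 and 9. Sfrp1, a secreted inhibitor of Wnt ligands, was the most abundant of the risers, with 270, 241 and 244 CPM in WT and 1144 and 1155 CPM in TET TKO (2.19, SE 0.10, adjusted p = 1.72e-10). Sfrp4, another such inhibitor, changed by 1.80, Nkd2, an intracellular inhibitor, by 1.09 and the receptor Fzd1 by 1.04. Nkd2 and Fzd1 were under 2-fold without TET TKO replicate 2 (0.89 and 0.93) and without WT replicate 1 (0.94 and 0.91). The genes that fell were the ligands Wnt3a, Wnt5b and Wnt6, the inhibitors Rnf43 and Dkk1, and the target genes Cdx1, Cdx2, T and Sp5. Wnt3a measured 2.33, 4.59 and 4.56 CPM against 0.670 and 0.713 CPM (-2.48, SE 0.34). Cdx1 measured 47.3, 114 and 112 CPM against 12.7 and 13 CPM (-2.83, SE 0.51), so that WT replicate 1 was well below the other WT libraries but still above TET TKO. Sp5 measured 37.0, 27.8 and 24.8 CPM against 9.45 and 12.3 CPM (-1.45, SE 0.24). Axin2, a feedback target of the pathway, changed by -0.47 (SE 0.08, adjusted p = 0.000224), less than the 2-fold needed for a call.

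Imprinted genes were listed by the allele they are expressed from. An imprinted gene is expressed from the allele of 1 parent, under control of a region whose DNA methylation differs between the alleles. Of 29 genes expressed from the maternal allele edgeR called 0 higher and 4 lower (13.8%, near the 10.5% of all genes, median 0.12), limma-voom 1 and 3 and DESeq2 0 and 4, with 8 higher and 8 lower at an unadjusted edgeR p below 0.05 (18.8% and 18.3% of all genes), and edgeR called 2 higher without WT replicate 1 and 1 without TET TKO replicate 2. Of 32 genes expressed from the paternal allele 4 rose and 6 fell (31.2%, against 10.5% of all genes, median -0.05), with 2 and 6 without TET TKO replicate 2 and 2 and 5 without replicate 1. On chromosome 12 the genes of the Dlk1-Dio3 domain moved in opposite directions. The maternal noncoding RNA Meg3 measured 309, 264 and 261 CPM in WT and 133 and 144 CPM in TET TKO (-1.0, SE 0.13), and its change fell under 2-fold without WT replicate 1 (-0.92) and without TET TKO replicate 1 (-0.95). Rian, of the same strand, measured 441, 352 and 354 CPM against 169 and 177 CPM (-1.14, SE 0.14), and Mirg changed by -1.26 (SE 0.18). Dio3, the paternally expressed deiodinase at the other end of the domain, measured 5.00, 7.26 and 7.01 CPM against 42.4 and 42.7 CPM, a change of 2.71 (SE 0.17, adjusted p = 1.09e-09). The groups did not overlap in any of these 4 genes, which was also so for 53.1% of all genes tested. The 250 bases before the start of Dio3 (mm9, chr12:111517028-111517277, plus strand) are shown as an example of a CpG-dense promoter of a gene that rose, with its 26 CpGs in capitals.
Dio3: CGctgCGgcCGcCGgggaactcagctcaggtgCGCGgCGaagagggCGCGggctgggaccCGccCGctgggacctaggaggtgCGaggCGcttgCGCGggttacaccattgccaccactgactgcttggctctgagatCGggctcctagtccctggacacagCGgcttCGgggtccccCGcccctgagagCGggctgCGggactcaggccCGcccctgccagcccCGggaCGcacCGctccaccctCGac

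Paternally expressed genes that fell were Peg10, Nnat, Sgce, Impact, Zdbf2 and Mest, the last with an adjusted p of 0.0587 without TET TKO replicate 1. Peg10, derived from a retrotransposon and needed in the placenta, measured 166, 255 and 264 CPM in WT and 39.2 and 35.9 CPM in TET TKO (-2.60, SE 0.38, adjusted p = 0.000391). Sgce, which neighbours Peg10, changed by -1.72, and Asb4, maternally expressed in the same region of chromosome 6, measured 1.83, 1.03 and 1.27 CPM against 0.0352 and 0.0376 CPM (-5.02, SE 0.52). Impact measured 378, 313 and 315 CPM against 111 and 111 CPM (-1.59, SE 0.11), and Zdbf2 measured 354, 326 and 319 CPM against 124 and 133 CPM (-1.37, SE 0.09). In these genes the TET TKO libraries were the lowest of the 5. Igf2, a growth factor, rose from 5.83, 10.6 and 12.4 CPM to 26 and 24.9 CPM (1.37, SE 0.25, adjusted p = 0.00111), while H19, its maternally expressed neighbour, changed by 0.22 (SE 0.26, adjusted p = 0.595). The remaining risers, Rtl1 and Airn, rested on 4 and 10 reads and lost their call without either TET TKO library.

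Genes that are restricted to the germline and are known to need DNA methylation for silencing moved in both directions, with 13 of 74 higher and 7 lower (27%, against 10.5% of all genes, median 0.14), with 11 higher and 12 lower without WT replicate 1, 11 and 4 without TET TKO replicate 1 and 13 and 4 without TET TKO replicate 2. Ccnb1ip1, a meiotic recombination factor, measured 1.11, 1.42 and 1.56 CPM in WT and 13.6 and 14.3 CPM in TET TKO (3.32, SE 0.12, adjusted p = 1.08e-12). Stk31, a testis kinase, measured 7.00, 7.90 and 7.75 CPM against 24.0 and 21.2 CPM (1.57, SE 0.10), and Dazl, an RNA-binding protein of germ cells, measured 17.2, 21.2 and 25.6 CPM against 47.6 and 43.0 CPM (1.08, SE 0.19, and 0.96 without WT replicate 1). The TET TKO libraries were above all WT libraries in each of the 3 genes, and the groups did not overlap in 53.1% of all genes tested. Several genes of the X-linked Xlr cluster rose, among them Xlr5a, from 0.111, 0.107 and 0.106 CPM to 3.42 and 2.52 CPM (4.72, SE 0.31), and Xlr4a (3.68, SE 0.21). The Xlr genes are near-identical copies, so the share of each copy in these counts is uncertain. Tex13 fell from 5.39, 19.21 and 19.11 CPM to 1.69 and 1.46 CPM (-3.23, SE 0.70, adjusted p = 0.00532), with an adjusted p of 0.0502 without TET TKO replicate 2.

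Pluripotency genes were counted in a naive and a core list. In the naive list 1 of 23 rose and 1 fell (8.70%, near the 10.5% of all genes, median 0.04). In the core list edgeR, limma-voom and DESeq2 called 0 of 13 (median -0.09). At an unadjusted edgeR p below 0.05, 0 of the core genes were higher and 2 lower (15.4%), against 18.8% and 18.3% of all genes. Nanog changed by -0.02 (SE 0.11) and Pou5f1, which encodes OCT4, by -0.09 (SE 0.07). Tcl1, an AKT coactivator, was the gene that rose, from 74.1, 49.5 and 49.4 CPM to 127 and 120 CPM (1.11, SE 0.16), and Gbx2, a homeobox gene, was the one that fell, from 39.0, 32.8 and 29.3 CPM to 13.6 and 15.7 CPM (-1.20, SE 0.16). Of 23 genes of the formative and primed state 2 rose and 6 fell (34.8%, median -0.54), and without TET TKO replicate 2 the counts were 1 and 3. Cldn6, a tight junction protein, measured 12.5, 16 and 15.5 CPM against 3.38 and 3.60 CPM (-2.07, SE 0.20), Lin28b changed by -1.26 and Fgf5 by -3.58, whereas Otx2, a homeobox gene of the primed state, rose from 1.06, 0.498 and 0.672 CPM to 2.96 and 3.19 CPM (2.11, SE 0.48). None of these genes had overlapping groups, which was also so for 53.1% of all genes tested. Genes of the 2-cell stage, which a small share of ES cells transcribes at any time, had a median of -0.88. Of 32 tested, edgeR and limma-voom called 0 higher and 4 lower (12.5%, near the 10.5% of all genes) and DESeq2 0 and 6. At an unadjusted edgeR p below 0.05, 1 was higher and 7 lower (3.1% and 21.9%, against 18.8% and 18.3% of all genes). The 4 that edgeR called were Zscan4b, BC080695, Zfp750 and Ddit4l. Their count was 1 without TET TKO replicate 1, 2 without replicate 2 and 2 without WT replicate 3. The calls of Zscan4b and BC080695 were lost without either TET TKO library and without WT replicate 3, that of Zscan4b also without WT replicate 2, and that of Zfp750 without TET TKO replicate 1 and without WT replicate 1. Zscan4b measured 1.06, 2.67 and 2.16 CPM against 0.811 and 0.526 CPM (-1.60, SE 0.47, adjusted p = 0.0215, and 0.0581 to 0.158 in the fits that lost the call), and Zscan4 copies are near identical, so reads between them are uncertain.

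Developmental regulators were mixed. Of 32 mesoderm and endoderm genes 6 rose and 6 fell (37.5%, against 10.5% of all genes, median 0.34), of 23 neuroectoderm genes 1 rose and 2 fell (13%, median 0.33), and of 24 trophoblast genes 2 rose and 8 fell (41.7%, median -0.38). Without TET TKO replicate 2 the trophoblast counts were 2 and 5, as Krt7, Plac8 and Fgfr2 lost their call there and also without replicate 1, and without WT replicate 1 the neuroectoderm counts were 3 and 2. Hand1, a basic helix-loop-helix factor of heart and trophoblast, went from 0, 0.0711 and 0.0708 CPM to 1.45 and 0.976 CPM (4.37, SE 0.72), and Gsc, Mixl1, Sox17 and Hand2 changed by between 1.30 and 1.61. Sox17 lost its call without either TET TKO library, and Hand2 without replicate 1. All stayed at low levels, with Gsc highest at 6.10 and 4.66 CPM in TET TKO. Dab2, Sox7, Hnf4a and Cubn were among the genes of the same list that fell. Sox7 and Cubn lost their call without either TET TKO library, and Hnf4a without replicate 2. Among the Hox genes 3 of 37 rose and 2 fell (13.5%, median 0.46), and the falls ranged from 0 (without TET TKO replicate 2 or WT replicate 3) to 6 (without WT replicate 1) when 1 library was left out, the rises from 2 to 5. Hoxd9 measured 1.11, 4.23 and 3.36 CPM against 13.5 and 13.8 CPM (2.18, SE 0.33), and its neighbour Hoxd8 measured 1.11, 2.70 and 2.58 CPM against 7.79 and 7.06 CPM (1.75, SE 0.27). WT replicate 1 was the lowest library in both, and TET TKO the highest. Of 38 Polycomb components 2 rose and 0 fell by each of the 3 tools (5.26%, against 10.5% of all genes, median -0.05). At an unadjusted edgeR p below 0.05, 9 were higher and 8 lower (23.7% and 21.1%, against 18.8% and 18.3% of all genes). Cbx8, a chromodomain subunit, rose by 1.21 (SE 0.16).

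Genes of the DNA methylation machinery and of the KAP1 pathway gave few or no calls in short lists, where edgeR called 10.5% of all genes. Of 19 genes of DNA methylation edgeR and DESeq2 called 0 and limma-voom called 1 higher (median -0.21). At an unadjusted edgeR p below 0.05, 1 was higher and 7 lower (5.26% and 36.8%, against 18.8% and 18.3% of all genes). Dnmt1, the maintenance methyltransferase, measured 513, 479 and 478 CPM in WT and 477 and 500 CPM in TET TKO, so the groups overlapped. Dnmt3l, a cofactor of the de novo enzymes, measured 76.3, 47.1 and 43.4 CPM against 162 and 150 CPM (1.5, SE 0.69, adjusted p = 0.141), so that both TET TKO libraries lay above every WT library without a call, and Dnmt3a changed by -0.78 (SE 0.16, adjusted p = 0.00151). Of 18 genes of KAP1 and H3K9 methylation all 3 tools called 0 (median 0.07). At an unadjusted edgeR p below 0.05, 6 were higher and 4 lower (33.3% and 22.2%, against 18.8% and 18.3% of all genes). Among 28 partners of TET and enzymes of active demethylation 1 rose and 1 fell (7.14%, against 10.5% of all genes, median -0.04), and the falls ranged from 0 to 2 when 1 library was left out. Tdg, the glycosylase that removes oxidised 5-methylcytosine downstream of TET, measured 6.94, 6.23 and 6.83 CPM against 17.8 and 16.1 CPM (1.35, SE 0.15, adjusted p = 2.37e-06), with both TET TKO libraries above every WT library. Apobec2, a member of the cytidine deaminase family, changed by -1.10 (SE 0.27, adjusted p = 0.00821), and its adjusted p was 0.0966 without TET TKO replicate 2.

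Of 31 p53 targets, genes that this stress-response factor induces, edgeR and DESeq2 called 0 and limma-voom called 1 lower, but the median was -0.52, and 22 were lower and 3 higher at an unadjusted edgeR p below 0.05 (71.0% and 9.68%, against 18.3% and 18.8% of all genes). Of these genes 4 were called lower without TET TKO replicate 1 and 3 without WT replicate 1. Trp53inp1, a p53-induced autophagy factor, measured 562, 528 and 532 CPM in WT and 292 and 288 CPM in TET TKO (-0.90, SE 0.07, adjusted p = 1.49e-08), and Ccng1, a cyclin that p53 induces, changed by -0.52 (SE 0.06, adjusted p = 7.58e-06). Both genes were lower in each TET TKO library, though by less than 2-fold. Of 49 interferon and nucleic acid sensing genes 3 rose and 4 fell (14.3%, near the 10.5% of all genes, median -0.28), and 2 fell without TET TKO replicate 1 or WT replicate 2. Isg15, a ubiquitin-like modifier, and Gbp2, a guanylate-binding protein, both among the falls, lost their call with the 5 shEmpty libraries alone (adjusted p = 0.0599 and 0.0657) and without either TET TKO library. Ifi204, a DNA sensor, measured 0, 0 and 0 CPM against 1.69 and 1.54 CPM, at least 40.1-fold higher over a floor of 3 reads in the WT libraries together, and Samd9l, an interferon-induced inhibitor of translation, measured 1.83, 0.996 and 1.34 CPM against 7.23 and 7.06 CPM (2.40, SE 0.42). Cxcl10, a chemokine, went the other way, from 0.444, 0.213 and 0.283 CPM to 0 and 0 CPM, at least 5.75-fold lower over the same floor in TET TKO. Of 30 genes of glycolysis and hypoxia 13 were higher and 1 lower at an unadjusted edgeR p below 0.05 (43.3% and 3.33%, against 18.8% and 18.3% of all genes). By call 2 rose and 0 fell (6.67%, against 10.5% of all genes, median 0.17), and limma-voom and DESeq2 called 3 and 2 higher and 0 lower. Those that rose were Egln3, a hypoxia-induced prolyl hydroxylase, by 1.53 (SE 0.25), and Car9, a carbonic anhydrase, by 1.51 (SE 0.38).

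Markers of fibroblast feeder cells, which ES cell stocks can carry, were low in all libraries, with a summed level of 15.5, 24.9 and 27.4 CPM in WT and 36.8 and 35.7 CPM in TET TKO. Of 12 that were tested edgeR called 4 higher (Thy1, Mmp2, Fbln5 and Lum, by 1.44 to 3.44) and 0 lower (33.3%, against 10.5% of all genes), limma-voom 4 and 1 and DESeq2 3 and 1. At an unadjusted edgeR p below 0.05, 4 were higher and 2 lower (33.3% and 16.7%, against 18.8% and 18.3% of all genes). Without WT replicate 1 edgeR called 1 lower. The call of Lum was lost without TET TKO replicate 1 and without WT replicates 2 or 3. The main fibroblast collagen, Col1a1, measured 1.89, 2.85 and 2.51 CPM against 3.21 and 3.64 CPM (0.48, SE 0.25, adjusted p = 0.162). The part of such cells in the other differences was not tested. Of 8 genes of the Y chromosome 4 rose and 1 fell (62.5%). Kdm5d, a Y-linked histone demethylase, measured 0.389, 0.925 and 0.991 CPM in WT and 23.0 and 23.2 CPM in TET TKO (4.83, SE 0.35, adjusted p = 1.6e-07), whereas Ddx3y, an RNA helicase, measured 92.7, 111 and 107 CPM against 194 and 195 CPM (0.91, SE 0.10) and Usp9y changed by -2.41 (SE 0.35). Transcripts of the Y chromosome were thus present in every library of both lines.

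**Figure D2:**
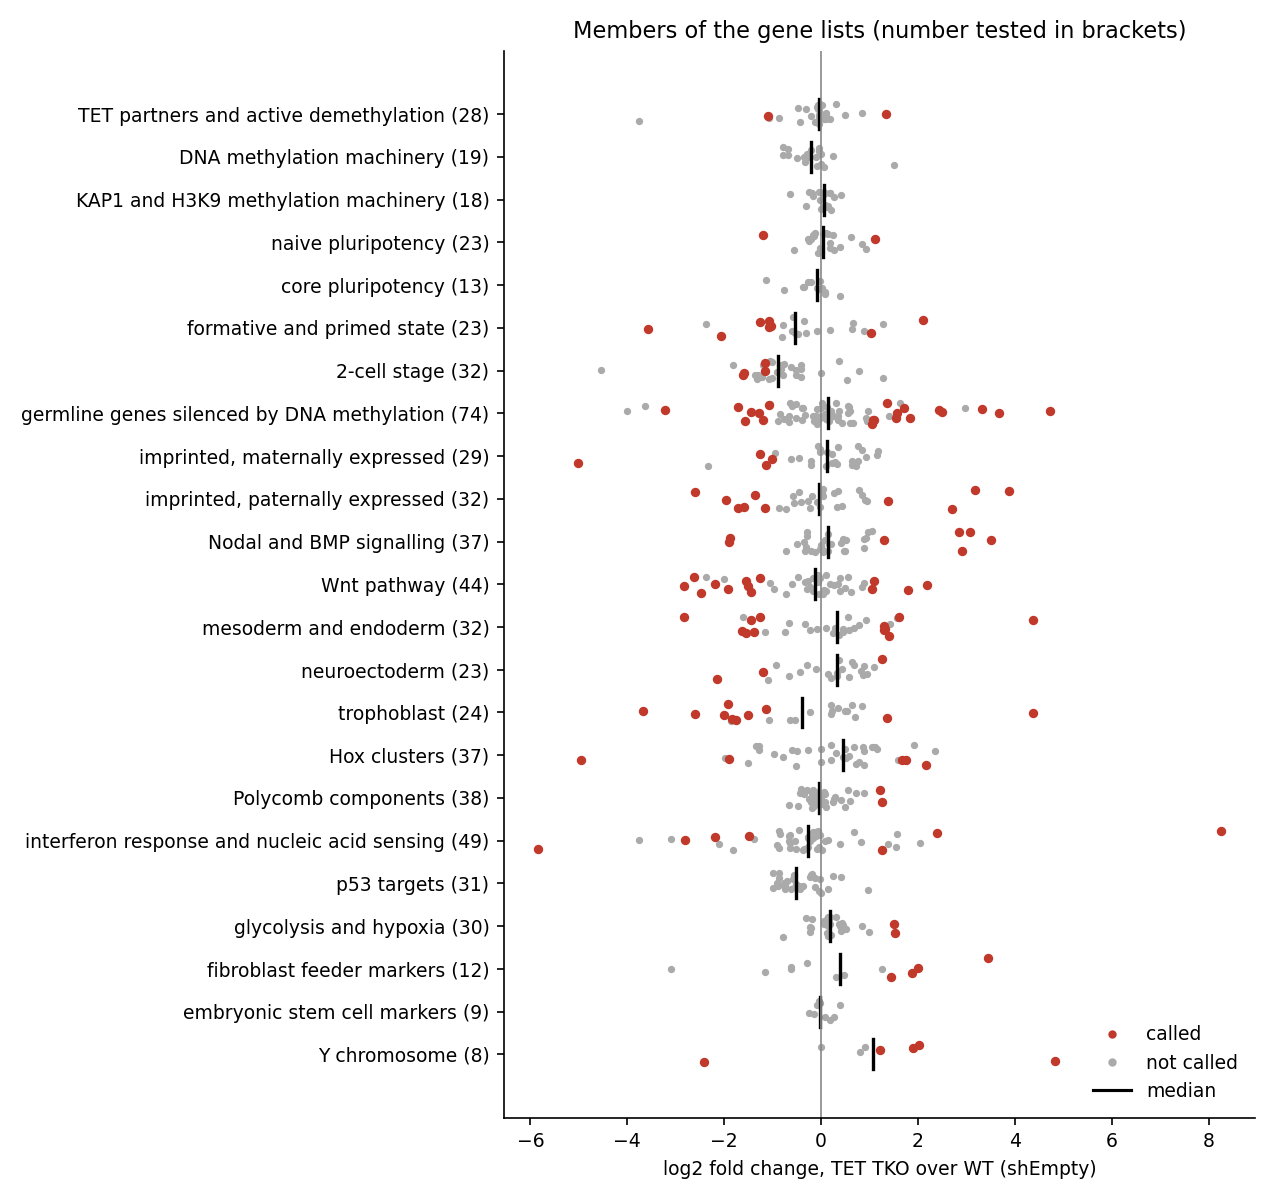
Log2 fold change of TET TKO over WT for each tested member of the gene lists, with the number tested in brackets (red, called; grey, not called; black bar, median of the list). The 3 TET enzymes are not drawn. Medians lie between -0.88 (2-cell stage) and 1.06 (Y chromosome), with the formative and primed state at -0.54, p53 targets at -0.52 and Hox genes at 0.46. Calls on both sides stand in the Wnt, germline and paternally expressed imprinted lists.

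Next, the genes were compared with the chromatin of WT cells, using the regions of the authors' ChIP-seq peak sets (H3K4me3, which marks active starts, and H3K27me3, the mark of Polycomb). Anywhere in the gene, an H3K27me3 region overlapped 42.3% of the genes that rose, 33.9% of those that fell and 21.5% of all genes tested, and an H3K4me3 region 62.3%, 70.5% and 73.9%. An H3K27me3 region lay within 1 kb of the start of 34.1% of the genes that rose, 24.8% of those that fell and 15.9% of all genes tested. For H3K4me3 the shares were 56.0%, 59.4% and 69.3%, and for both marks together 30.2%, 20.2% and 13.2%. Among genes with a mean of at least 1 CPM, H3K27me3 lay at 39.3% of those that rose, 23.8% of those that fell and 12.3% of all. These shares describe the lists and were not tested. Dio3, Hand1, Hoxd8, Hoxd9 and Otx2 among the risers and Cldn6 and Wnt3a among the genes that fell had both marks at the start. Lefty1 had H3K27me3 alone, Lefty2 and Tdg had H3K4me3 alone, and Obox6, Trim43a, Ubd, Serpina3m, Apoa2 and Asb4 had neither. In the WT 5hmC library of shEmpty (1 library and its input, 7822735 and 4588819 reads over the peak regions) the 5hmC reads at marked starts relative to the input reads had a median of -1.45 (log2) for genes that rose, -1.38 for those that fell and -1.82 for all.

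**Figure D3:**
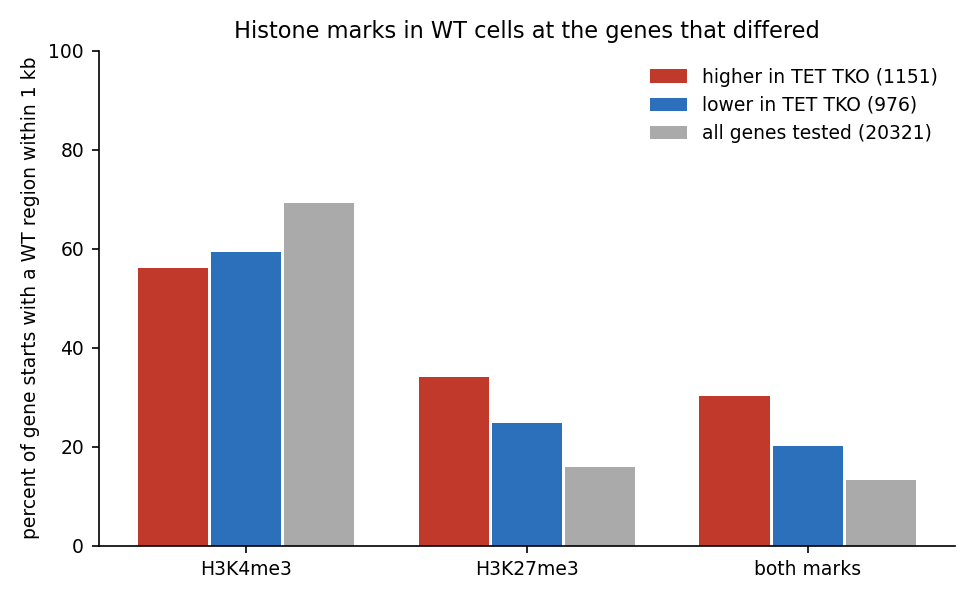
Percent of gene starts with a WT region of H3K4me3, of H3K27me3 or of both within 1 kb, for the 1151 genes higher in TET TKO, the 976 lower and all 20321 tested. H3K27me3 stood at 34.1% of the starts of genes that rose against 15.9% of all starts, and H3K4me3 at 56.0% against 69.3%.

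Promoters of the called genes held fewer CpGs than those of all genes. Over the 300-base window from 250 bases before to 50 after the start, the median observed to expected CpG ratio was 0.487 for the genes that rose, 0.429 for those that fell and 0.627 for all, and at a mean of at least 1 CPM it was 0.593, 0.483 and 0.729. Motifs that contain CpG were searched on both strands. The E-box CACGTG lay in 7.05% of the windows of genes that rose, 5.44% of those that fell and 8.38% of all. For the motif GCGGGAA, whose matches can overlap those of the E-box by 1 base at most, the shares were 5.40%, 4.72% and 6.44%. None of the promoters printed here held either motif. Obox6 and Trim43a, shown because they were among the largest rises and lack CpG-dense promoters, hold 2 and 1 CpGs in the 250 bases before the start (mm9, chr7:16425028-16425277, minus strand, and chr9:88475479-88475728, plus strand), and their window ratios are 0.181 and 0.0878.
Obox6: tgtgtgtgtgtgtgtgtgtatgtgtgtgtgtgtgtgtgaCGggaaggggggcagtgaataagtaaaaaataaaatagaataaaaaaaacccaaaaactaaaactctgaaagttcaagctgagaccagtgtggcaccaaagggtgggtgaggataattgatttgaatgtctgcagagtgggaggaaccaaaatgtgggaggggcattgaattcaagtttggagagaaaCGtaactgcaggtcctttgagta
Trim43a: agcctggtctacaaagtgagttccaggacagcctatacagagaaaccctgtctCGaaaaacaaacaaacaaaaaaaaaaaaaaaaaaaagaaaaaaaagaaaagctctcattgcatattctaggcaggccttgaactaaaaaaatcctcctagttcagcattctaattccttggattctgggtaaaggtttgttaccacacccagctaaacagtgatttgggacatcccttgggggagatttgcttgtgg

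TEs were counted integrant by integrant from uniquely mapped reads. Of 123880 integrants tested 2160 were higher and 2891 lower in TET TKO cells, together 4.08%. In 630 of those that rose (29.2%) all WT libraries were at 0, and in 650 of those that fell (22.5%) all TET TKO libraries were at 0. The classes differed in direction. LTR elements had 1025 higher and 661 lower of 26970, LINEs 453 and 1552 of 27754, SINEs 621 and 634 of 65077 and DNA transposons 61 and 44 of 4079. Summed over all integrants, LINEs measured 9327, 8721 and 8670 CPM in WT and 7312 and 8070 CPM in TET TKO. LTR elements measured 13255, 12791 and 13077 CPM against 13669 and 15691 CPM, of which TET TKO replicate 2 gained most at the integrants described above. Scaling by the TE reads in place of the gene reads gave 2474 higher and 2397 lower, so the excess of falls over rises depends on the scaling.

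Of 885 families 27 were higher and 14 lower, or 4.63%. The largest rise by reads was that of RLTR45-int, the internal part of an endogenous retrovirus of the ERVK class. It measured 23.3, 60.3 and 50.6 CPM in WT and 1053 and 1011 CPM in TET TKO, a change of 4.52 (SE 0.42, adjusted p = 2.19e-05). WT replicate 1 was the lowest, and the TET TKO libraries were nearly equal. Its reads came from many integrants: 77 of 146 tested rose and 0 fell, with 108 higher and 1 lower at an unadjusted p below 0.05 (5.56% and 8.09% of all integrants passed so), and limma-voom and DESeq2 called 66 and 67 higher and 0 lower. Of 39 integrants with at least 100 reads 30 rose and 9 were not called. The first 300 bases of 3 integrants among the 5 largest rises of all TEs are shown, on the plus strand of mm9, with CpGs in capitals. The annotation merges these elements with their flanking LTRs and lists an LTR first, ERVB4_2-LTR_MM for the copies on chromosome 4 and RLTR45 for the copy on chromosome 3, so the stretches open with LTR and not with internal sequence.
RLTR45-int at chr4:8044182-8044481: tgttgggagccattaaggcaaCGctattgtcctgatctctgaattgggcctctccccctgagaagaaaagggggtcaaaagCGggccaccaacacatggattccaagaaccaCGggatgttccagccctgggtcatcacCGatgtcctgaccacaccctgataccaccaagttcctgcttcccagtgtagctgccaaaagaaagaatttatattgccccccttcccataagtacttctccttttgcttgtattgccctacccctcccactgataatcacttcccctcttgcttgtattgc
RLTR45-int at chr4:55321577-55321876: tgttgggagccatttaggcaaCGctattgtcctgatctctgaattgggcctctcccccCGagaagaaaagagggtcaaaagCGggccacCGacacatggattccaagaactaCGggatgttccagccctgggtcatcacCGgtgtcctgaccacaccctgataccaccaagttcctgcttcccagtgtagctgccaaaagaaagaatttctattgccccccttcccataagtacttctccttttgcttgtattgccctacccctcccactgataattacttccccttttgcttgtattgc
RLTR45-int at chr3:19713690-19713989: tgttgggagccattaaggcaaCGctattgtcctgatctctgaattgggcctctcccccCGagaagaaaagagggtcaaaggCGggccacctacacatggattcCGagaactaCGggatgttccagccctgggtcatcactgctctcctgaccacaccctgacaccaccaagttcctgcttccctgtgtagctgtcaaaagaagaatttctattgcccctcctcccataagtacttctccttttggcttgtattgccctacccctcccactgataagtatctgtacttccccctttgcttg
The pair on chromosome 4 match at 97.0% of positions in this stretch, and the copy on chromosome 3, whose LTR has the other name, matches them at 89.7% and 90.7%. They hold 4, 6 and 5 CpGs. Reads were kept only where unique, so stretches that are identical between copies gave none.

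The element at chr4:8044182-8051623 measured 0.167, 0.249 and 0.248 CPM in WT and 308 and 345 CPM in TET TKO (10.46, SE 0.56, adjusted p = 6.28e-07), and it contains Gm11800. The element at chr4:55321577-55329047 measured 0.0555, 0.178 and 0.142 CPM against 246 and 188 CPM (10.61, SE 1.11, adjusted p = 0.000189). Together they supplied 52.6% and 52.7% of the reads of the family in the TET TKO libraries, and limma-voom, which gave similar changes of 10.38 and 10.65, did not call them (adjusted p = 1.000 and 0.957). Without these integrants the family measured 22.9, 59.7 and 50.0 CPM against 498 and 478 CPM, still far apart. The element at chr3:19713690-19721080 measured 0.0555, 0 and 0.0354 CPM against 35.8 and 31.5 CPM (10.03, SE 0.34). The copy at chr15:33761204-33766912, which had reads in WT, measured 1.33, 3.70 and 5.34 CPM against 104 and 93.3 CPM (4.80, SE 1.01, adjusted p = 0.0226). Its adjusted p was 0.0676 to 0.0977 when any 1 of the 5 libraries was left out, and 0.694 with limma-voom. Not all copies were called. A fragment of 167 bases at chr4_random:129932-130098 measured 2.72, 1.64 and 1.88 CPM against 2.08 and 1.39 CPM, with overlapping groups. A longer uncalled copy, of 6049 bases at chr8:19911160-19917208, was uneven in WT but higher in TET TKO. It measured 0.444, 19.5 and 3.68 CPM against 29.4 and 35.3 CPM (2.01, SE 1.05, adjusted p = 0.472). An H3K9me3 region of WT cells lay at 55.8% of the 77 copies that rose and at 48.6% of all 146, and a KAP1 region at 53.2% and 46.6%.

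**Figure D4:**
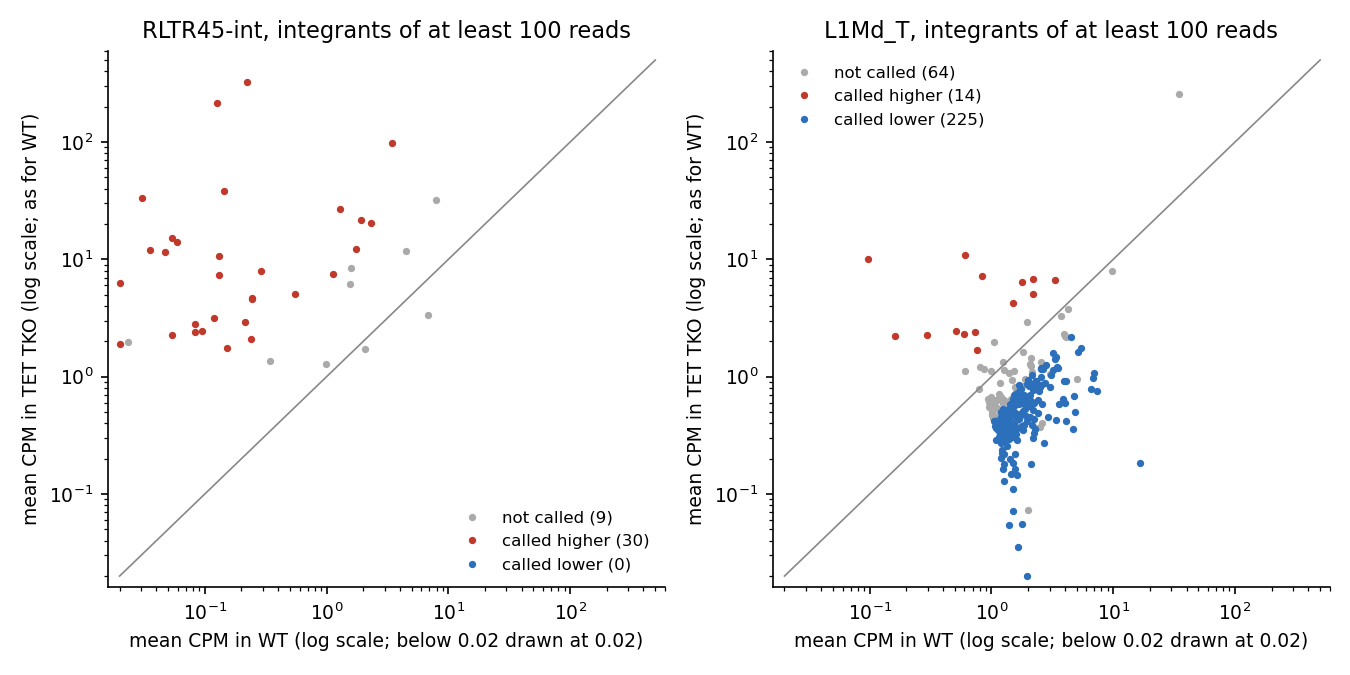
Mean CPM in WT against mean CPM in TET TKO for each integrant with at least 100 reads of RLTR45-int (39) and of L1Md_T (303), on log axes, values below 0.02 drawn at 0.02 (red, called higher; blue, called lower; grey, not called; line, equality). In RLTR45-int 30 integrants were called higher and 0 lower, and in L1Md_T 14 higher and 225 lower. The read minimum sums both genotypes, so copies near 0 in WT passed it through TET TKO reads and could only be called higher.

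Other LTR families that rose included IAP-d-int, with 25.7, 29.2 and 27.5 CPM in WT and 81.1 and 87.0 CPM in TET TKO (1.61, SE 0.13, adjusted p = 3.71e-07), ORR1C1-int, with 9.83, 8.82 and 8.28 CPM against 30.3 and 33.4 CPM (1.83, SE 0.10), and MERVK26-int, RLTR10D and ERVB4_2-I_MM-int, by 1.62, 1.38 and 2.12. ERVB4_2-I_MM-int was not called with the 5 shEmpty libraries alone (adjusted p = 0.118). Most of the rise of ORR1C1-int came from 1 integrant, at chr17:36300145-36301526, which measured 0.0555, 0 and 0 CPM in WT and 19.4 and 20.4 CPM in TET TKO. ERVB7_4-LTR_MM changed by 4.81 (SE 0.22), but 1 integrant, at chr11:121765551-121765948, held 95.9% of its reads in TET TKO. ORR1A2 measured 179, 164 and 169 CPM against 183 and 1803 CPM, and its call (2.54, adjusted p = 0.0201) came from TET TKO replicate 2 alone. Without the 10 integrants that were high in that library it changed by 0.32 (SE 0.06), under 2-fold. Other IAP families had higher sums over their tested integrants, such as IAPEY3-int, with 16.8, 13.8 and 14.3 CPM against 36.7 and 37.0 CPM. For IAPLTR2_Mm these were 5.22, 5.30 and 5.66 CPM against 13.7 and 14.1 CPM. By contrast IAPEz-int, the main target of KAP1 among the IAP elements, measured 94.9, 104 and 113 CPM against 82.6 and 80.6 CPM (-0.35, SE 0.24, adjusted p = 0.409). MERVL-int, the retrovirus of the 2-cell stage, measured 164, 245 and 267 CPM against 196 and 190 CPM (-0.22, SE 0.40, adjusted p = 0.806), and MT2_Mm, its LTR, changed by -0.21 (SE 0.30). The groups of MERVL-int overlapped, since WT replicate 1 was below both TET TKO libraries.

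Several LINE-1 families were lower. L1Md_Gf measured 108, 99.7 and 91.7 CPM in WT and 39.1 and 36.3 CPM in TET TKO (-1.40, SE 0.10, adjusted p = 1.96e-10), while L1Md_A measured 300, 256 and 260 CPM against 145 and 148 CPM (-0.89, SE 0.11, adjusted p = 8.83e-05), under 2-fold. L1Md_T measured 2207, 1970 and 1961 CPM against 825 and 1324 CPM (-0.93, SE 0.16, adjusted p = 0.00195). Part of its reads in TET TKO replicate 2 came from 1 element, at chr13:9831267-9837911, which measured 30.5, 37.7, 36.7, 23.0 and 489 CPM in the 5 libraries. Without the 10 integrants that were high in that library the family measured 2177, 1932 and 1924 CPM against 802 and 834 CPM (-1.30, SE 0.07, adjusted p = 1.65e-09). Most of the elements with more reads were lower: of 303 integrants with at least 100 reads 257 were lower in both TET TKO libraries than in all WT libraries (29.1% of all TE integrants of that depth). Of the 303, 225 were called lower and 14 higher, against 715 and 452 of all 8220 TE integrants of that depth. Over all 6515 tested integrants 997 fell and 32 rose (15.3% and 0.49%, against 2.33% and 1.74% of all TE integrants). The number of falls was 397 without TET TKO replicate 1 and 441 without replicate 2. An H3K4me3 region of WT cells lay at 65.7% of the L1Md_T integrants that fell and at 34.4% of all, but at 86.7% and 81.5% among those with at least 100 reads. L1Md_F, without the 10 integrants, measured 111, 107 and 102 CPM against 70.9 and 74.2 CPM (-0.55, SE 0.07, adjusted p = 5.71e-06), under 2-fold. L1Md_F2 measured 680, 590 and 598 CPM against 566 and 647 CPM (-0.04, SE 0.07), with overlapping groups. The median change over its tested integrants was -0.49, close to that of L1Md_A (-0.46).

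LTR families that fell were LTR82A, with 14.0, 10.0 and 12.2 CPM in WT and 1.09 and 1.20 CPM in TET TKO (-3.38, SE 0.19), RLTR13B3, RLTR30D_MM, RLTR50B and RLTR22_Mus, by 2.05, 1.95, 1.30 and 1.19 on the log2 scale, and ETnERV-int. ETnERV-int, the internal part of an early transposon, measured 377, 432 and 310 CPM against 194 and 155 CPM (-1.10, SE 0.22, adjusted p = 0.00546). Its change was under 2-fold with the TE reads as scale (-0.95), without TET TKO replicate 2 (-0.95) and without WT replicate 2 (-0.98). RLTR13B3 lost its call with the 5 libraries alone and without TET TKO replicate 1 (adjusted p = 0.165 and 0.0539), and RLTR22_Mus was under 2-fold without that library (-0.98).

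**Figure D5:**
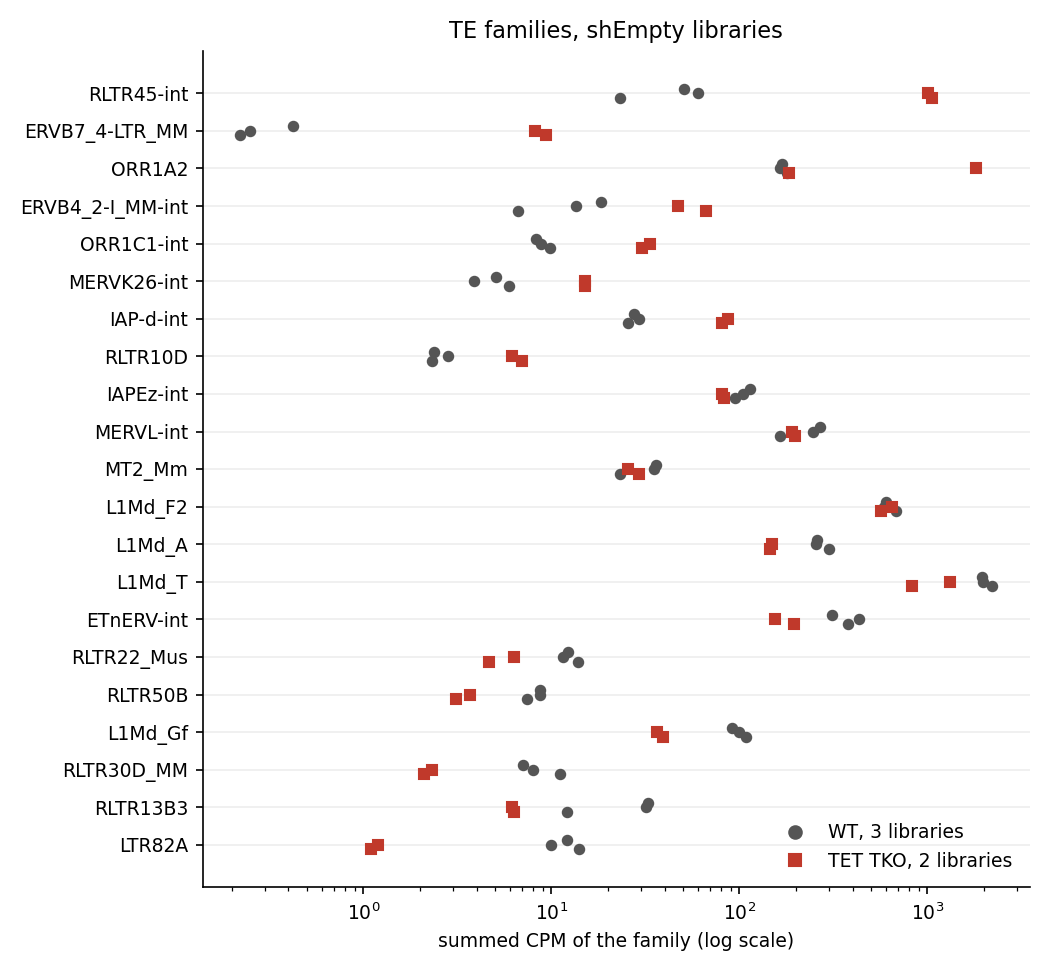
Summed CPM of named TE families in each library on a log axis (circles WT, 3 libraries; squares TET TKO, 2 libraries). RLTR45-int stands at 1053 and 1011 CPM in TET TKO against at most 60.3 CPM in WT, L1Md_A, L1Md_Gf and ETnERV-int lie lower in TET TKO, L1Md_F2 overlaps, and ORR1A2 and L1Md_T show TET TKO replicate 2 apart from replicate 1.

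The single integrants with the largest changes were often absent from all libraries of 1 genotype. An Lx3B copy at chr2:174845929-174846553 measured 0, 0 and 0 CPM in WT and 12.3 and 15.1 CPM in TET TKO, at least 340-fold higher over a floor of 3 reads in the WT libraries together. An ORR1C1-int copy at chr17:36300145-36301526 measured 0.0555, 0 and 0 CPM against 19.4 and 20.4 CPM. In the other direction an RLTR9E copy at chr13:65592611-65593028 measured 2.44, 2.56 and 3.15 CPM against 0 and 0 CPM, at least 49.8-fold lower over the same floor, and an RLTR30D_MM copy at chr15:33153125-33153422 (at least 49.4-fold), L1M3e at chr9:107082132-107082382 (38.5-fold), Lx9 at chr12:68924371-68925079 (37.2-fold) and an MTC-int copy on chromosome 18 (51.5-fold) were also at 0 in both TET TKO libraries. The RLTR9E copy was at 0 in both shKap1 libraries of TET TKO too, while WT shKap1 libraries averaged 11 CPM. Of 2644 windows of 1 Mb, the one with most called integrants, and chosen for that, was chromosome 13 from 66 to 67 Mb. It had 53 higher and 57 lower of 287 tested, where 4.08% of all integrants were called. 2410141K09Rik, one of the genes that fell most, lies in that window. The window before it, from 65 to 66 Mb, came second, with 26 higher and 29 lower of 206. The 10 windows with most calls, chosen in the same way, held 8.20% of all called integrants and 1.59% of those tested.

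A share of the called integrants lay within called genes. An integrant inside a gene of the same strand can take up reads of that gene, and 291 of the integrants that rose (13.5%) and 310 of those that fell (10.7%) lay in a gene called in the same direction. Seen from the genes, an LTR integrant that rose lay within 10 kb of the start of 89 of the 1151 genes that rose (7.73%), against 315 of all 20321 (1.55%). An LTR integrant that fell lay as close to 45 of the 976 genes that fell (4.61%), against 179 of all (0.881%). Of the 12 largest gene rises 7 had a rising LTR integrant of at least 100 reads within 10 kb of the start, against 0.512% of all genes. Most of all genes were not called, so that share is not one of rising genes. Among the 7, Gm11800 lies inside its element, so the same transcripts can count on both sides. By comparison 0 of the 12 largest falls had a falling LTR integrant, against 0.359% of all genes. The RLTR45-int copy at chr7:16433941-16440817 begins 8.91 kb from the start of Obox6, on the other strand, and measured 0.0555, 0 and 0.106 CPM in WT and 13.4 and 16.7 CPM in TET TKO. An MMERVK9C_I-int copy at chr12:105615390-105621194 ends 4.18 kb upstream of Serpina3m and measured 0.0555, 0.0356 and 0 CPM against 11.1 and 14.0 CPM. Whether such transcripts belong to the integrant or to the gene was not tested.

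Libraries with a Kap1 hairpin (shKap1) give the same genotype comparison without any shared library, 2 TET TKO against 3 WT. There 1240 genes were higher and 1009 lower, or 11.1%. Both comparisons called 492 genes higher, which is 42.7% of those with shEmpty and 39.7% of those with shKap1, and 407 lower, 41.7% and 40.3%. The difference between the comparisons was itself called for 4.21% of genes (9.69% passed the adjusted p alone), among them 234 of the 1151 that rose and 155 of the 976 that fell with KAP1 present, which were chosen by the shEmpty estimate that is also part of that difference. Obox6, Dio3, Gm13394 and Rian had similar values in both, with changes of 5.41, 2.63, -5.73 and -1.55 in shKap1 and differences whose adjusted p lay between 0.217 and 0.93. Lefty2 changed by 2.54 (adjusted p = 0.0209), whereas Lefty1, at 0.85, was not called (adjusted p = 0.447), although the difference between the comparisons was not called either (adjusted p = 0.286). Serpina3m and Samd9l, at 2.07 and -0.63, did differ (adjusted p = 8.95e-05 and 0.00375). Tet3, level with shEmpty, changed by -1.33 with shKap1, and that difference was called (adjusted p = 0.00121). Among TEs 1084 integrants were higher in both, 50.2% and 15.3% of each list, and 709 lower in both, 24.5% and 30%. RLTR45-int changed by 2.08 and L1Md_T by -0.11 in shKap1, against 4.52 and -0.93 in shEmpty.

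DNMT TKO cells, which lack Dnmt1, Dnmt3a and Dnmt3b, were compared with the same 3 WT libraries, so only the values are set side by side. RLTR45-int changed by 3.23 in DNMT TKO and by 4.52 in TET TKO, and L1Md_T by -2.17 and -0.93. Obox6 changed by 4.68 and 6.62, Trim43a by 3.77 and 5.86, Ccnb1ip1 by 4.74 and 3.32 and Dazl by 4.46 and 1.08. Igf2 changed by -3.0 and 1.37, Meg3 by 0.93 and -1.0, Sfrp1 by -1.01 and 2.19, and Tdg by -0.70 and 1.35. Lefty1 changed by 0.42 in DNMT TKO, against 2.91 in TET TKO.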

How the data were processed

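RNA-seq libraries were poly(A)-selected, stranded and read from a single end at 100 bp. The authors mapped the reads to the mouse genome mm9 (HISAT2 2.0.1 in the submitters' processing notes), kept uniquely mapped reads and made the deposited counts of reads per gene with featureCounts (1.5.1 in the notes) and per TE integrant with bedtools (2.25), both on the sense strand. A read from a TE was thus counted only where its sequence is unique, so young copies are counted in part. Region counts of ChIP-seq and 5hmC enrichment (hMeDIP) were deposited as well. The regions of WT cells were overlapped with genes and integrants by at least 1 bp, and of hMeDIP 1 shEmpty library with its input was used, with 1 read added to each and at least 10 input reads. No region was tested. The other hMeDIP and ChIP-seq samples were not analysed here.

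Counts were analysed as deposited, with edgeR 4.0.16 (R 4.3.3): TMM factors, 1 quasi-likelihood fit over all 16 RNA libraries in 6 groups of genotype and hairpin, features with at least 16 reads over these libraries, and Benjamini-Hochberg adjustment over all features of a table. TE integrants and families were scaled with the library sizes and factors of the genes. The study's limma-voom (limma 3.58.1) and DESeq2 1.42.0 were alternatives, beside other scalings, filters and libraries. On counts simulated for the shEmpty comparison of TET TKO with WT, with a dispersion of 0.02 and log2 changes of 1.5 or 2 in size in features of at least 800 reads, edgeR called 200 of 200 changed genes of 20321 with 1 false call, and 200 of 200 changed integrants of 123880 with 4. Features with more spread, fewer reads or changes near 2-fold were not simulated. With 3 WT and 2 TET TKO libraries, p-values rest on spread shared with the other groups. RPKM were computed from CPM and summed exon length, and promoters were read from mm9 (NCBIM37) with samtools 1.23.1. A floor of 3 reads over a group replaced a group at 0.

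The comparison, the members and the gene lists were chosen with earlier results of these data known. Genes were named by a rule: Tet1 to Tet3, the 12 largest rises and falls among called genes of at least 200 reads with groups that did not overlap, and of each list the 4 called members of largest change, or the 2 of highest level where fewer than 2 were called. Named TEs were the 5 largest rises and falls of integrants with at least 100 reads, and called families of at least 500 reads, up to 8 in each direction, with IAPEz-int, MERVL-int, MT2_Mm, L1Md_A and L1Md_T. Genes and elements named besides these were chosen after their values were seen. Some genes that the rule names are not reported here.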

Additional observations from a re-analysis of the deposited data

Results flagged for a closer look

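For 28 of the 95 named genes the difference between TET TKO and WT cells was not the same with shEmpty and with shKap1, by edgeR's test of the difference itself, at an adjusted p below 0.05, which 9.69% of all genes passed. Of the 28, 22 also differed by at least 2-fold, against 4.21% of all genes, and 6 by less (Tet2, Uhrf1, Cldn6, Lin28b, Meg3 and Ccnb1ip1). Many of the named genes were chosen for a large change with shEmpty, and that estimate is part of the difference, so a smaller change with shKap1 and a share above that of all genes follow in part from the choice. Values here are that difference on the log2 scale, the change with shKap1 minus the change with shEmpty, with the adjusted p of edgeR, and no explanation was tested.

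Among the largest rises the difference was -5.231 for 2810429I04Rik (5.90 with shEmpty and 0.67 with shKap1, adjusted p = 4.49e-08), -4.907 for Serpina3m (adjusted p = 8.95e-05), -4.777 for Gm14443 (6.41 and 1.63, adjusted p = 1.05e-09), -3.536 for Khdc1c (6.501 and 2.965, adjusted p = 0.0282) and -1.642 for Gm10499 (8.13 and 6.49, adjusted p = 0.0343). Among the largest falls it was 5.219 for AI427809 (-5.28 and -0.06, adjusted p = 0.00418), 4.213 for D630013G24Rik (-5.38 and -1.17, adjusted p = 0.000319) and 3.411 for AA986860 (-5.08 and -1.66, adjusted p = 5.7e-06).

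Of the targeted genes, the difference was -0.4605 for Tet2 (adjusted p = 0.0448) and -1.304 for Tet3 (adjusted p = 0.00121), so for both the change was further below 0 with shKap1. For Uhrf1, the partner of the maintenance methyltransferase, it was 0.3814 (adjusted p = 0.00491).

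Among signalling and developmental genes the difference was 1.655 for Wnt3a (adjusted p = 0.0351), 2.052 for Dkk1 (adjusted p = 0.0361), -3.562 for Hand1 (4.37 and 0.81, adjusted p = 0.0378), -1.289 for Cbx8 (adjusted p = 0.00217) and -0.5981 for Meg3 (-1.0 and -1.60, adjusted p = 0.0486). Genes of pluripotency and of the early embryo gave 2.742 for Tcl1 (1.11 and 3.85, adjusted p = 3.02e-05), 0.928 for Cldn6 (adjusted p = 0.0409), 0.5225 for Lin28b (adjusted p = 0.0159), 2.969 for BC080695 (-1.61 and 1.36, adjusted p = 0.00292), 2.864 for Zscan4b (-1.60 and 1.27, adjusted p = 0.00335) and 1.015 for Ddit4l (adjusted p = 0.00261). Tcl1 rose further with shKap1, and BC080695 and Zscan4b had values of opposite sign.

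For the meiotic gene Ccnb1ip1 the difference was -0.7528 (adjusted p = 0.00948), for the DNA sensor Ifi204 -4.572 (adjusted p = 0.0401) and for Samd9l -3.028 (2.40 and -0.63, adjusted p = 0.00375). The feeder marker Thy1 gave -1.297 (adjusted p = 0.0289). The Y-linked genes Kdm5d and Usp9y gave -2.271 (4.83 and 2.55, adjusted p = 0.00754) and 2.437 (-2.41 and 0.03, adjusted p = 0.00127).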

How the results depend on the processing

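Of the calls with KAP1 present, 887 to 986 of the 1151 genes that rose and 646 to 885 of the 976 that fell were called again when 1 of the 5 libraries was left out. No called gene or integrant was called in the opposite direction under any alternative run. A change of sign without a call was not counted. The gene counts ranged from 940 to 1087 higher and from 693 to 1069 lower without 1 library, and lay between 1002 and 1183 higher and between 869 and 972 lower with limma-voom, DESeq2, RLE scaling or the 5 shEmpty libraries alone. With no fold threshold 2865 genes were higher and 2656 lower, and 76 and 61 TE families. TE integrants depended more on the tool and the filter. DESeq2 called 977 higher and 1038 lower, against 2160 and 2891, and a minimum of 10 reads in 2 of the 5 libraries left 1408 higher. Without 1 library the integrants ranged from 1379 (without TET TKO replicate 2) to 1842 (without WT replicate 1) higher and from 1251 (without TET TKO replicate 1) to 2491 (without WT replicate 1) lower, with 1381 lower without TET TKO replicate 2, and the families that fell from 7 (without TET TKO replicate 1) to 17 (without TET TKO replicate 2), against 14. Fits without 1 library hold fewer libraries and the read minimum leaves fewer integrants, while the cause of the shift with DESeq2 was not tested. Families scaled by TE reads gave 34 higher and 10 lower. Leaving out the 10 integrants that were high only in TET TKO replicate 2, an alternative chosen after seeing the data, gave 26 and 16.

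No pairing by replicate number was seen, as deviations of WT and TET TKO libraries from their group means correlated within ±0.0139. Only 2 numbers were shared, and the deviations of 2 TET TKO libraries mirror each other, so these values cannot decide on a pairing. With the replicate number as a block, which ended the calls of Isg15 (adjusted p = 0.0521) and Gbp2 (0.0525), 1189 genes were higher and 933 lower, 1929 and 2589 integrants, and 27 and 14 families. Among the named genes 11 of 459 repeated values lost their call under another tool, scaling, filter or set of libraries, and 51 of 460 when 1 library was left out, and among the named families 7 of 105 and 8 of 75. ORR1A2 lost its call with limma-voom (adjusted p = 0.0696), the 5 libraries alone (0.317) and the block (0.0606), ERVB4_2-I_MM-int (0.118) and RLTR13B3 (0.165) with the 5 libraries alone, and ETnERV-int was under 2-fold with the TE reads as scale. Within 1 kb of the start H3K4me3 lay at 56.04%, 59.43% and 69.26% and H3K27me3 at 34.14%, 24.8% and 15.95% of the genes that rose, that fell and of all. Over the whole gene each share was higher, and the order of the 3 sets was the same. Each genotype was 1 cell line, which limits every comparison.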
